A study of Mus musculus with 12 samples.

Results

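Microglia and macrophage genes were described in hippocampal mouse neural progenitor cell (mNPC) cultures, as a measure of how much myeloid RNA each culture held. The members were Siglec1, Csf1r, Aif1, C1qa, C1qb, C1qc, Tyrobp, Ctss, Cx3cr1 and P2ry12, 10 genes in all. Siglec1 was chosen by its counts, which differed between the 2 genotypes that carry nestin-Cre, and the other 9 genes because they mark myeloid cells. Of the 10, 5 were among the 18911 genes of the count table (Siglec1, Csf1r, Aif1, Cx3cr1 and P2ry12), and all of these but Aif1, 4 genes, had enough counts to be tested. C1qa, C1qb, C1qc, Tyrobp and Ctss were not analysed here.

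Cells from the hippocampus of newborn (P0) pups on a C57BL/6J background were grown as mNPCs in medium with FGF-2 and EGF, and their mRNA was sequenced in 12 libraries, 3 for each of 4 genotypes. Kmt2a+/+ was the wild type without Cre. Kmt2a+/LSL carried a loxP-stop-loxP cassette in intron 1 of 1 allele of Kmt2a, which encodes a histone H3 lysine 4 methyltransferase, and served as a model of Wiedemann-Steiner syndrome. Nes-Cre+/- Kmt2a+/+ carried the nestin-Cre transgene with both Kmt2a alleles intact, and Nes-Cre+/- Kmt2a+/LSL carried the transgene together with the cassette, which Cre removes. All libraries shared the strain, the age and the culture protocol. The Kmt2a+/LSL mice descended from 1 founder line. The study calls the libraries of a genotype biological replicates, but the sources used here do not say whether they came from separate pups or cultures, so p-values measure the spread between these libraries.

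Microglia are the resident macrophages of the brain. They enter it from the yolk sac early in development and do not arise from neural progenitors, and nestin-Cre is active in the neural lineage. They survive on signals through the CSF1 receptor (Csf1r), whose ligands Csf1 and Il34 are made by neural cells. CX3CR1 binds fractalkine (Cx3cl1), P2RY12 senses ADP from injured cells, AIF1 (also called IBA1) is a cytoplasmic calcium-binding protein, TYROBP (DAP12) is the adaptor of TREM2 and related receptors, cathepsin S (Ctss) is a lysosomal protease, and C1qa, C1qb and C1qc encode the chains of the first component of classical complement. Siglec1, or sialoadhesin, is a sialic acid receptor of macrophages that is scarce on resting microglia and is induced by interferon.

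Myeloid genes are known for promoters with sites of PU.1, an ETS factor that defines the myeloid lineage, and interferon-induced genes for the interferon-stimulated response element. The promoters of the counted members Aif1, Cx3cr1 and P2ry12 and of Ctss, which held both motifs, are shown for this reason, each from 250 bases before to 50 bases after the start in RefSeq on GRCm38.p6 and read 5′ to 3′ along the gene. The windows were chr17:35176003-35176302 (minus strand), chr9:120068247-120068546 (minus strand), chr3:59262936-59263235 (minus strand) and chr3:95526536-95526835 (plus strand), and capitals mark the letters of a motif on either strand.
Aif1: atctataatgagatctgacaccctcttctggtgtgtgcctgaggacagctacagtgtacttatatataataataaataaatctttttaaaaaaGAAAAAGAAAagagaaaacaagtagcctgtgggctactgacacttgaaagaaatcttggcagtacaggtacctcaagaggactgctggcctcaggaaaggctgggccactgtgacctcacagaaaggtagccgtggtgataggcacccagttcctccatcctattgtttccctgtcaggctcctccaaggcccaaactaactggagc
Cx3cr1: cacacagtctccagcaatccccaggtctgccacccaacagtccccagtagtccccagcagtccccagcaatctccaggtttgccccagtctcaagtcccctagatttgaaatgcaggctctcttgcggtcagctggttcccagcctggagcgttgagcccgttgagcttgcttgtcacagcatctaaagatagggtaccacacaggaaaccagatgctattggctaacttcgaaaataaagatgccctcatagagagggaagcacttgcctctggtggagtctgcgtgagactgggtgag
P2ry12: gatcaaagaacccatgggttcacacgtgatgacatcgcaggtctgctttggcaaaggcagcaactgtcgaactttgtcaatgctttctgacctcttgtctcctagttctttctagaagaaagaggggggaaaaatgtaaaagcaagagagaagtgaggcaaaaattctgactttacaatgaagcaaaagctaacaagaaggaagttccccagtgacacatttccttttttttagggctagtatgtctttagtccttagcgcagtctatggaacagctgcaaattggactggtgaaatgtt
Ctss: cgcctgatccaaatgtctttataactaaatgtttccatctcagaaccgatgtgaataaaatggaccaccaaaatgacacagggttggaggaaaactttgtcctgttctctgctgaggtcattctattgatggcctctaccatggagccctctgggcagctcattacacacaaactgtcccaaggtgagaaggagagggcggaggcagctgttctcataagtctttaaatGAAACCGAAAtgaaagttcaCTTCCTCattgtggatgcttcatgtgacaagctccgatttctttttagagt

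Of the 10 members, 6 had a promoter in the RefSeq table (the 4 above, C1qb and C1qc), and Siglec1, Csf1r, C1qa and Tyrobp were not among them. The PU.1-type motif GAGGAAG was in the windows of 2 of the 6 (Ctss and C1qc), against 13.6% of all 32851 promoters of the same length. The interferon-stimulated response element, searched as GAAA, 2 bases of any kind and GAAA again, was in 2 of the 6 (Ctss and Aif1), against 3.44% of all. Both strands were searched, the 2 motifs overlapped nowhere in these windows, and a match describes letters only. The Cx3cr1 and P2ry12 windows held neither set of letters.

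The 5 counted members were near the bottom of the range of detected genes. Together they held 203 of 286734648 counts over the 12 libraries (0.708 CPM, counts scaled to the summed totals), and no library held more than 21 counts of any of them. Mean levels in CPM of TMM-scaled library size were 0.303 for P2ry12, 0.250 for Cx3cr1, 0.105 for Siglec1, 0.0556 for Csf1r and 0.0324 for Aif1. A count of 3 corresponded to between 0.105 and 0.164 CPM, depending on the library, so that most of these means were at or below the level of a few reads. Such floors and the intervals given below cover counting error only.

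Per kilobase of the longest transcript, which allows genes to be compared, the order was P2ry12 (0.129 CPM per kb), Cx3cr1 (0.0555), Aif1 (0.0370), Siglec1 (0.0164) and Csf1r (0.0118). Of the 18718 genes with a known length, 23.7% lay below P2ry12 on this scale and 4.16% below Csf1r. Neighbours in this order were within the spread between libraries of each other, since P2ry12 ran from 0 to 21 counts and Cx3cr1 from 1 to 11, and Aif1, Siglec1 and Csf1r were at 0 in 6, 3 and 6 of the 12 libraries.

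Progenitor genes were the reverse. The list of 10 neural progenitor markers summed to between 7276 and 15610 CPM in single libraries, with Fabp7 (3891 CPM), Slc1a3 (2222 CPM), Vim (2116 CPM) and Nes (521 CPM) at its head, which matches the label of the cultures as neural progenitors. Fabp7 is a fatty acid binding protein of radial glia, Slc1a3 a glutamate transporter, and Vim and Nes are intermediate filaments. The cultures also held transcripts of astrocytes (summed 1801 to 4730 CPM) and of the oligodendrocyte lineage (1199 to 5560 CPM).

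Beyond the members, 38 genes of microglia, brain border macrophages and myeloid cells in general were listed. Of these, 32 had values, and 24 of the 32 (75%) had a mean under 1 CPM, against 33.7% of all genes in the table. Genes that define microglia were at or near the floor of 3 counts. Tmem119 reached at most 3 counts in a library, Selplg 2, Fcrls 2 and P2ry13 5. Trem2, the lipid receptor that signals through DAP12, had 11 to 18 counts in every library. Only 4 of the 32 had a mean over 10 CPM, among them Sall1 (104 CPM), Dab2 (24.4 CPM) and Runx1 (10.5 CPM). Dab2 is an endocytic adaptor and Sall1 a transcription factor also found in neural progenitors.

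**Figure D1:**
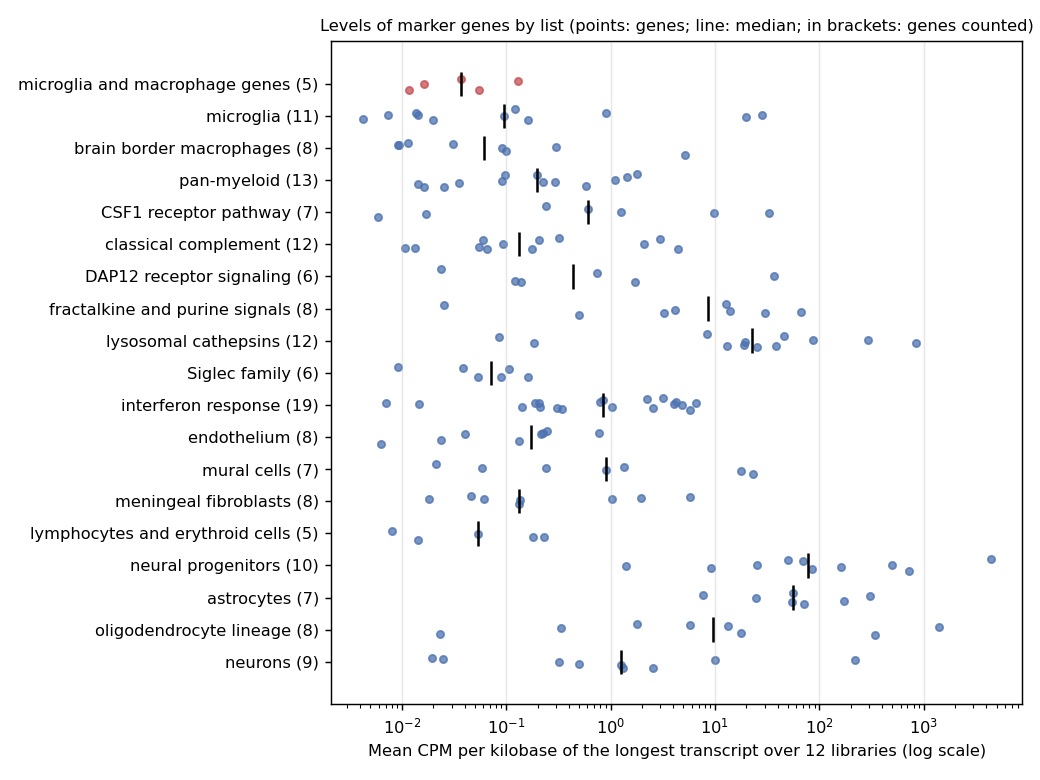
Mean level of each counted gene, in CPM per kilobase of its longest transcript over 12 libraries on a log scale, with 1 line per marker list, a point per gene and a bar at the list's median. The 5 microglia and macrophage genes (top line, red) lie between 0.0118 and 0.129 CPM per kb and the medians of the microglia, border macrophage and general myeloid lists lie far below that of the progenitor markers.

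Most genes of macrophages of the meninges and vessels were as low. Of the 8 border macrophage genes with values, 6 had a mean under 1 CPM. Mrc1 and Pf4, a mannose receptor and a platelet-type chemokine, reached at most 4 and 2 counts. Stab1 and Ms4a7 were also under 1 CPM but counted in every library, with 9 to 37 and 4 to 14 counts. Stab1 was higher in Nes-Cre+/- Kmt2a+/LSL than in each other genotype at an unadjusted edgeR p under 0.05, and was not called. In these comparisons, with Kmt2a+/LSL, Kmt2a+/+ and Nes-Cre+/- Kmt2a+/+, 1.61%, 1.85% and 1.11% of all genes had such a p. Cd163, the haemoglobin scavenger receptor, stood somewhat higher, with 13 to 53 counts and a mean of 1.33 CPM. Among the general markers, Spi1, which encodes PU.1 itself, had 0 to 8 counts and Ptprc, the pan-leukocyte phosphatase CD45, had 0 to 9. Irf8 (2.03 CPM) and Cd68 (1.76 CPM) were the other general markers above 1 CPM beside Runx1.

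Siglec1 (ENSMUSG00000027322, GRCm38 chr2:131069220-131086765, minus strand) overlapped no other gene, and 1.66% of its 31-base words occurred in transcripts of other genes. Kmt2a+/+ libraries had 3, 4 and 3 counts in replicates 1 to 3. Kmt2a+/LSL libraries had 3, 2 and 2 counts. Nes-Cre+/- Kmt2a+/+ libraries had 0, 0 and 0 counts, and Nes-Cre+/- Kmt2a+/LSL libraries had 6, 4 and 2. The Nes-Cre+/- Kmt2a+/+ libraries thus lay below all 9 others, and the other 3 genotypes overlapped. Summed over a genotype the counts were 10, 7, 0 and 12 in that order, or 0.138, 0.0946, 0 and 0.174 CPM, with exact Poisson 95% intervals of 0.0662 to 0.254, 0.0380 to 0.195, 0 to 0.0515 and 0.0901 to 0.305 CPM.

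The difference between the 2 genotypes with nestin-Cre was the value that chose Siglec1 and is a description. Against a floor of 3 counts over the 3 libraries of Nes-Cre+/- Kmt2a+/+, Siglec1 was at least 4.16-fold higher in Nes-Cre+/- Kmt2a+/LSL, while the exact 95% interval of the ratio, which covers counting error, began lower, at 2.89. The bound from the floor was between 2.72 and 5.12 when each of the 6 libraries was left out in turn, and 2.72-fold when Nes-Cre+/- Kmt2a+/+ replicate 3 was left out. Against the same floor, Nes-Cre+/- Kmt2a+/+ was at least 3.30-fold lower than Kmt2a+/+ (2.15 to 3.81 with libraries left out), and the exact 95% interval of this ratio reached up to 0.451. Both bounds rest on 0 counts in the same 3 libraries, so they are not independent of each other. P2ry12 also had at most 2 counts in each Nes-Cre+/- Kmt2a+/+ library, while Cx3cr1 had 8 in 2 of them.

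Without Cre, Siglec1 was measured in libraries that the choice did not use. Kmt2a+/LSL against Kmt2a+/+ gave a log2 fold change of -0.60 (SE 0.74), with an edgeR adjusted p of 1 and a ratio of summed counts of 0.685 (95% interval 0.221 to 1.99). The libraries of the 2 genotypes overlapped.

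**Figure D2:**
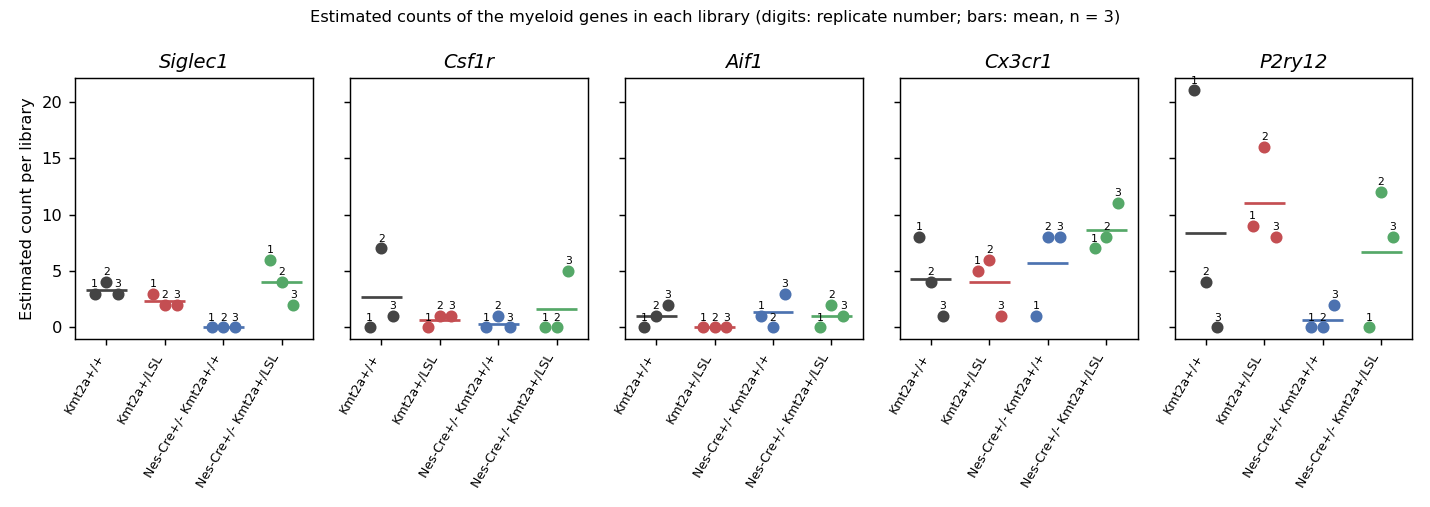
Estimated counts of the 5 counted microglia and macrophage genes in each of 12 libraries, with a panel per gene, the genotypes along the horizontal axis, digits for replicate numbers and a bar at the mean of 3 libraries. Siglec1 is at 0 in all 3 Nes-Cre+/- Kmt2a+/+ libraries, and P2ry12 is highest, at 21 counts, in Kmt2a+/+ replicate 1.

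Csf1r (ENSMUSG00000024621, plus strand of chromosome 18) encodes the receptor on which microglia depend. The Kmt2a+/+ libraries had 0, 7 and 1 counts and the Kmt2a+/LSL libraries 0, 1 and 1. The Nes-Cre+/- Kmt2a+/+ libraries had 0, 1 and 0, and the Nes-Cre+/- Kmt2a+/LSL libraries 0, 0 and 5. In each genotype at least 1 library was at 0 and the genotypes overlapped, with 12 of the 16 counts in 2 libraries (Kmt2a+/+ replicate 2 and Nes-Cre+/- Kmt2a+/LSL replicate 3). Of its exon bases, 15.1% lie within exons of other genes, mainly Hmgxb3 on the opposite strand, and the sources used here do not state whether strand was used, so part of these counts may belong to either gene. The ratio of summed counts was 0.245 (95% interval 0.025 to 1.23) in Kmt2a+/LSL against Kmt2a+/+, 0.126 (0.003 to 0.943) in Nes-Cre+/- Kmt2a+/+ against Kmt2a+/+, 2.69 (0.44 to 28.2) in Nes-Cre+/- Kmt2a+/LSL against Kmt2a+/LSL and 0.658 (0.169 to 2.28) in Nes-Cre+/- Kmt2a+/LSL against Kmt2a+/+. edgeR gave an adjusted p of 1 in each of them. Between the genotypes with nestin-Cre, 5 counts in Nes-Cre+/- Kmt2a+/LSL stood against 1. The log2 fold change there was 2.07 (SE 1.81), and it turned to -1.87 without Nes-Cre+/- Kmt2a+/LSL replicate 3 and was 3.94 without Nes-Cre+/- Kmt2a+/+ replicate 2.

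Cx3cr1 (ENSMUSG00000052336, GRCm38 chr9:119901616-120069879, minus strand), the fractalkine receptor, was the only member with a count in every library. The Kmt2a+/+ libraries had 8, 4 and 1 counts and the Kmt2a+/LSL libraries 5, 6 and 1. The Nes-Cre+/- Kmt2a+/+ libraries had 1, 8 and 8, and the Nes-Cre+/- Kmt2a+/LSL libraries 7, 8 and 11. All Nes-Cre+/- Kmt2a+/LSL libraries lay above all Kmt2a+/LSL libraries once scaled to library size, with 0.300 to 0.501 CPM against 0.0431 to 0.244 CPM. The log2 fold change was 1.24 (SE 0.93, edgeR adjusted p = 1), and the ratio of summed counts was 2.33 (1.14 to 5.07). Of all 17076 genes tested, 3.54% had libraries that did not overlap in this direction in this comparison, and the member's difference did not pass the test. In the other comparisons its libraries overlapped, with log2 fold changes of -0.39 (SE 0.97) for Kmt2a+/LSL against Kmt2a+/+, 0.15 (SE 0.93) in Nes-Cre+/- Kmt2a+/+ against Kmt2a+/+ and 0.85 (SE 0.92) in Nes-Cre+/- Kmt2a+/LSL against Kmt2a+/+, each with an edgeR adjusted p of 1. Without Kmt2a+/+ replicate 1, the value of Kmt2a+/LSL against Kmt2a+/+ turned to 0.73. Between the genotypes with nestin-Cre the ratio of summed counts was 1.59 (0.831 to 3.13), with libraries that overlapped.

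P2ry12 (ENSMUSG00000036353, GRCm38 chr3:59216272-59262871, minus strand), the ADP receptor that marks homeostatic microglia, lies within Med12l on the opposite strand, and 0.353% of its exon bases fall in exons of that gene. The Kmt2a+/+ libraries had 21, 4 and 0 counts and the Kmt2a+/LSL libraries 9, 16 and 8. The Nes-Cre+/- Kmt2a+/+ libraries had 0, 0 and 2, and the Nes-Cre+/- Kmt2a+/LSL libraries 0, 12 and 8. One library, Kmt2a+/+ replicate 1, held 21 of the 25 wild-type counts, and 4 of the 12 libraries were at 0, among them 1 of Kmt2a+/+ and 1 of Nes-Cre+/- Kmt2a+/LSL. The genotypes overlapped in each comparison tested. Its log2 fold change was 0.00 (SE 1.61) for Kmt2a+/LSL against Kmt2a+/+, -0.67 (SE 1.31) for Nes-Cre+/- Kmt2a+/LSL against Kmt2a+/LSL and -0.68 (SE 1.33) for Nes-Cre+/- Kmt2a+/LSL against Kmt2a+/+, with an edgeR adjusted p of 1 in each.

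With nestin-Cre alone, P2ry12 had 2 counts against 25 in Kmt2a+/+, a ratio of 0.081 (0.009 to 0.325). The log2 fold change was -3.80 (SE 1.69), and -1.34 without Kmt2a+/+ replicate 1 (edgeR adjusted p = 0.864). With all libraries its edgeR p was 0.0453 before and 1 after adjustment, and 1.4% of all genes had an unadjusted p under 0.05 in that comparison. In the contrast that chose Siglec1, P2ry12 had 20 counts in Nes-Cre+/- Kmt2a+/LSL against 2 in Nes-Cre+/- Kmt2a+/+, a ratio of 10.4 (2.53 to 91.8) that is given as a description. Its libraries overlapped there, since Nes-Cre+/- Kmt2a+/LSL replicate 1 was at 0.

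Aif1 (ENSMUSG00000024397, GRCm38 chr17:35170991-35176068, minus strand) had 10 counts in all and was not tested. The Kmt2a+/+ libraries had 0, 1 and 2 counts and the Kmt2a+/LSL libraries 0, 0 and 0. The Nes-Cre+/- Kmt2a+/+ libraries had 1, 0 and 3, and the Nes-Cre+/- Kmt2a+/LSL libraries 0, 2 and 1. No genotype exceeded 4 counts, and none could be told from another at this depth.

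**Figure D3:**
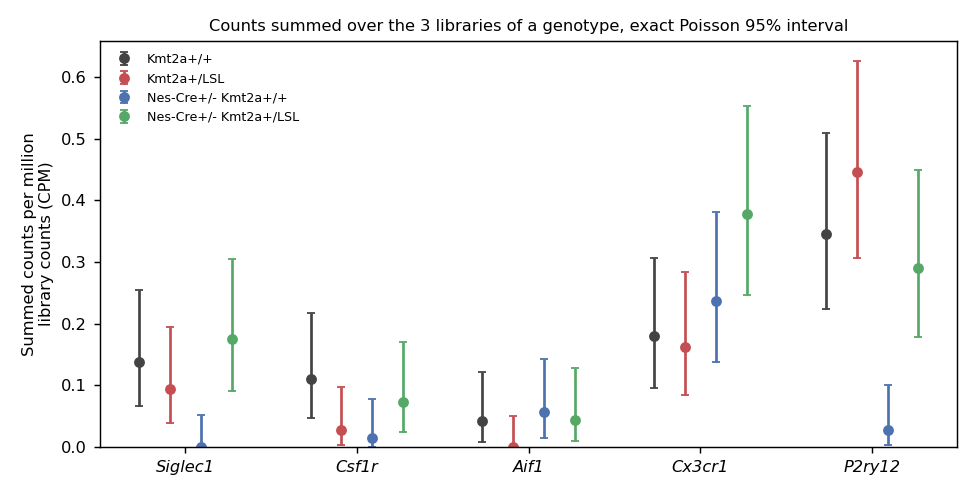
Counts summed over the 3 libraries of a genotype, in CPM of the summed library totals, for the 5 counted microglia and macrophage genes, with exact Poisson 95% intervals for counting error. Nes-Cre+/- Kmt2a+/+ has 0 CPM of Siglec1 and 0.0279 CPM of P2ry12, but 0.238 CPM of Cx3cr1, and most other intervals overlap.

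The 5 comparisons ask what the LSL allele, its removal by nestin-Cre, nestin-Cre alone and both together did to these genes. In all of them, 0 of the 4 tested members passed edgeR's test at an adjusted p under 0.05, and limma-voom and DESeq2 called 0 as well. Over all genes, edgeR called 0% except in Nes-Cre+/- Kmt2a+/LSL against Kmt2a+/+, where it called 0.00586% (1 gene, Nek7). DESeq2 called 0.0411% of all genes in Kmt2a+/LSL against Kmt2a+/+, 0.0411% in Nes-Cre+/- Kmt2a+/LSL against Kmt2a+/LSL, 0.0176% in Nes-Cre+/- Kmt2a+/+ against Kmt2a+/+, 0.0293% in Nes-Cre+/- Kmt2a+/LSL against Kmt2a+/+ and 0.0176% between the genotypes with nestin-Cre. At an unadjusted p under 0.05, edgeR gave 0 members in Kmt2a+/LSL against Kmt2a+/+ (1.79% of all genes), 0 in Nes-Cre+/- Kmt2a+/LSL against Kmt2a+/LSL (1.61%), 2 in Nes-Cre+/- Kmt2a+/+ against Kmt2a+/+ (Siglec1 and P2ry12, 1.4%) and 0 in Nes-Cre+/- Kmt2a+/LSL against Kmt2a+/+ (1.85%). Between the genotypes with nestin-Cre only Siglec1, which this contrast chose, was under that p (1.11% of all genes). The values of Siglec1 in the comparisons with Nes-Cre+/- Kmt2a+/+ come from the libraries by which it was chosen. They are a description, and its p-values there are not tests.

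Members whose groups did not overlap were few. In Kmt2a+/LSL against Kmt2a+/+, 0 tested members had all libraries higher (2.3% of all genes) or all lower (1.76%). For Nes-Cre+/- Kmt2a+/LSL against Kmt2a+/LSL, 1 was higher, Cx3cr1 (3.54%), and 0 lower (3.57%). For Nes-Cre+/- Kmt2a+/+ against Kmt2a+/+, 0 were higher (2.82%) and 1 was lower, Siglec1 (1.53%), which was chosen by the Nes-Cre+/- Kmt2a+/+ libraries. For Nes-Cre+/- Kmt2a+/LSL against Kmt2a+/+, 0 were higher (2.38%) or lower (1.25%). Between the genotypes with nestin-Cre, Siglec1, chosen by this contrast, was higher in Nes-Cre+/- Kmt2a+/LSL (3.1%) and 0 members were lower (3.58%).

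The median log2 fold change of the 4 tested members was -0.49 for Kmt2a+/LSL against Kmt2a+/+, 1.07 for Nes-Cre+/- Kmt2a+/LSL against Kmt2a+/LSL and -0.11 for Nes-Cre+/- Kmt2a+/LSL against Kmt2a+/+. It was -3.19 for Nes-Cre+/- Kmt2a+/+ against Kmt2a+/+ and 2.60 between the genotypes with nestin-Cre. With Siglec1 set to its bound from the floor these were -2.15 and 2.06. Such values include Siglec1, which was chosen by the Nes-Cre+/- Kmt2a+/+ libraries, so they do not measure a shift of the members as a set. The median over all genes was between 0.001 and 0.014 in the 5 comparisons. The comparisons share libraries, so their signs are not independent, and the medians of 4 genes with 0 to 33 counts a genotype are a description.

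As a measure of myeloid content that leaves out the gene picked for its difference, the other 4 counted members were summed per library. Kmt2a+/+ libraries had 1.73, 0.636 and 0.137 CPM, Kmt2a+/LSL libraries 0.525, 0.934 and 0.431 CPM, Nes-Cre+/- Kmt2a+/+ libraries 0.0813, 0.385 and 0.516 CPM, and Nes-Cre+/- Kmt2a+/LSL libraries 0.349, 0.824 and 1.14 CPM. Libraries of all genotypes overlapped, and the widest spread, from 0.137 to 1.73 CPM, was within Kmt2a+/+. Means were 0.833 ± 0.812, 0.630 ± 0.268, 0.328 ± 0.223 and 0.771 ± 0.398 CPM (SD, n = 3 each), from 49, 47, 24 and 54 counts. Without its replicate 1, Kmt2a+/+ fell from the highest mean to 0.387 CPM, and without its own replicate 1 Nes-Cre+/- Kmt2a+/+ had 0.451 CPM. Nes-Cre+/- Kmt2a+/+ had the lowest of the 4 means over all libraries and also 0 counts of Siglec1, but Cx3cr1 gave 17 of its 24 counts and P2ry12 gave 2. The medians of the other myeloid lists were above 0 there. Against Kmt2a+/+, the tested general myeloid genes had positive log2 fold changes in 8 of 12 (median 0.26), the microglia genes in 4 of 8 (median 0.07) and the border macrophage genes in 3 of 6 (median 0.03), beside a median of 0.01 over all genes, and 0 were called. The sum was not tested between genotypes, and bulk RNA does not show which cells gave these few counts. Fewer myeloid cells, less of these transcripts per cell and counting error cannot be told apart.

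Kmt2a+/+ replicate 1, which had the highest myeloid sum, also stood apart from the others over the whole transcriptome. It had the fewest counts (18280008, against up to 28596919), and the median correlation of its log2 CPM with other libraries of its genotype was 0.903, against 0.939 to 0.984 for the rest. Without it, the log2 fold change of P2ry12 in Kmt2a+/LSL against Kmt2a+/+ was 2.47 instead of 0.00 (edgeR adjusted p = 0.578) and in Nes-Cre+/- Kmt2a+/LSL against Kmt2a+/+ 1.79 instead of -0.68 (adjusted p = 0.542). Its part in these results was not tested. Kmt2a itself followed the labels, with 280.5 to 300.3 CPM in Kmt2a+/+, 165.8 to 166.6 CPM in Kmt2a+/LSL, 282.9 to 310 CPM in Nes-Cre+/- Kmt2a+/+ and 259 to 284.4 CPM in Nes-Cre+/- Kmt2a+/LSL. Kmt2a+/LSL libraries were lower than Kmt2a+/+ libraries by a log2 fold change of -0.80 (SE 0.13), with an adjusted p of 0.281 by edgeR and 6.09e-18 by DESeq2.

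The ligands of the microglial receptors stood far above the receptors, though Il34 was itself low, with a mean of 2.26 CPM. Csf1 stood at 9.82 CPM per kb, 831 times the level of Csf1r per kb, and Il34 at 1.26 CPM per kb, 106 times. Cx3cl1 stood at 14.0 CPM per kb, 252 times the level of Cx3cr1, and its sheddase Adam10 reached 308.5 CPM. Entpd1, an ectoenzyme that breaks down ATP and ADP, had 25.3 times the level of P2ry12 per kb. The ratios to Csf1r rest on its 16 counts, of which Kmt2a+/+ replicate 2 held 7, and without that library they were 1300 for Csf1 and 169 for Il34. With single libraries left out, Cx3cl1 to Cx3cr1 ranged from 225 to 292 and Entpd1 to P2ry12 from 22.9 to 35.2, an alternative chosen after the data were seen. Ratios computed over all exon bases in place of the longest transcript were 807, 120, 213 and 20.8.

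None of these signals passed the test in any comparison. Csf1, the main ligand of CSF1R, was higher in all Kmt2a+/LSL than in all Kmt2a+/+ libraries (log2 fold change 0.24, SE 0.18, edgeR adjusted p = 1), where 2.30% of all genes did not overlap in that direction. It was lower in all Nes-Cre+/- Kmt2a+/LSL than in all Kmt2a+/LSL libraries (-0.39, SE 0.18, adjusted p = 1), where 3.57% of all genes did not overlap in that direction. Il34 had values of 0.33 (SE 0.46) and -0.11 (SE 0.46) in the same comparisons. Cx3cl1 had values of 0.13 (SE 0.42) and -0.04 (SE 0.42), which were smaller than their errors.

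**Figure D4:**
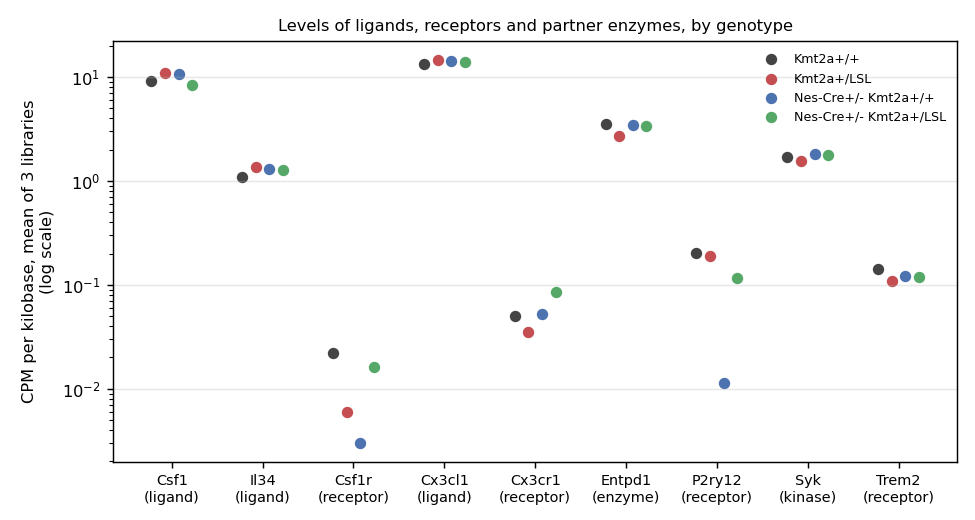
Mean level over 3 libraries per genotype, in CPM per kilobase of the longest transcript on a log scale, of ligands, receptors and partner enzymes of microglia. Csf1 and Cx3cl1, with means of 9.82 and 14.0 CPM per kb over all libraries, lie far above Csf1r and Cx3cr1 in all genotypes.

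The other genes of the members' pathways were led by broadly expressed components. Of the 7 genes of the CSF1 receptor pathway with values, 0 of 6 tested passed in any comparison, and the adaptor Grb2 (90.3 CPM) and Csf1 (41.0 CPM) led. Of 12 classical complement genes with values, 0 of 11 tested passed, 9 had a mean under 1 CPM, and the most abundant were Cr1l, a complement regulator (17.1 CPM), C4b (15.9 CPM), C2 (5.54 CPM) and Cd55 (0.643 CPM), with C3 at 0 to 4 counts. Of 6 DAP12 pathway genes, 0 passed, and the Src-family kinase Lyn (126.7 CPM) and Syk (9.13 CPM), which are also used outside myeloid cells, stood far above Btk (0 to 4 counts). Among 8 fractalkine and purine genes 0 passed, led by Adam10, Adam17 (135.7 CPM), the ATP channel P2rx7 (63.4 CPM) and Cx3cl1 (46.4 CPM).

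Of 12 lysosomal protease genes and cystatins related to Ctss, 10 had a mean over 10 CPM and 0 passed. Cst3, an inhibitor of cathepsins that astrocytes secrete, had 722.7 CPM, and the proteases Ctsd 628.6 CPM, Ctsb 412.7 CPM and Ctsa 168.7 CPM. Leukocyte-type Cst7 had 0 to 7 counts.

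Siglec1 was not alone in being low among sialic acid receptors. All 6 relatives with values (Siglech, Siglecf, Cd22, Siglece, Siglec15 and Siglecg) had means under 1 CPM, led by Siglech (0.376 CPM), Siglecf (0.231 CPM), Cd22 (0.214 CPM) and Siglece (0.198 CPM), and 0 of 6 passed in any comparison. The family's summed level was 0.481 to 1.309 CPM in Kmt2a+/+, 0.603 to 1.02 CPM in Kmt2a+/LSL, 0.984 to 1.301 CPM in Nes-Cre+/- Kmt2a+/+ and 1.311 to 1.733 CPM in Nes-Cre+/- Kmt2a+/LSL. All Nes-Cre+/- Kmt2a+/LSL libraries thus lay above the other 9, narrowly so above the highest Kmt2a+/+ library. The Nes-Cre+/- Kmt2a+/+ libraries, which had 0 counts of Siglec1, were not the lowest. Siglecf, with 9, 8 and 12 counts in the Nes-Cre+/- Kmt2a+/LSL libraries, also lay above the other 9. Of all genes, 3.54%, 2.38% and 3.1% did so against Kmt2a+/LSL, Kmt2a+/+ and Nes-Cre+/- Kmt2a+/+ taken singly. These sums and counts are a description with no test.

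Interferon-response genes, a class to which Siglec1 belongs, were measured as a list of 20 that left it out. Of 19 with values, 9 had a mean under 1 CPM and 0 of 17 tested passed in any comparison. Their summed level was 97.7 to 114.5 CPM in Kmt2a+/+, 108 to 124.2 CPM in Kmt2a+/LSL, 110.6 to 126.9 CPM in Nes-Cre+/- Kmt2a+/+ and 100.2 to 122.5 CPM in Nes-Cre+/- Kmt2a+/LSL, with overlap throughout. The most abundant were Mx1 (22.4 CPM), Ddx58 (18.6 CPM), Stat2 (17.98 CPM) and Ifit2 (16.3 CPM). In Nes-Cre+/- Kmt2a+/+ against Kmt2a+/+, 12 of the 17 had positive and 5 negative log2 fold changes, with a median of 0.14 beside 0.01 over all genes. Between the genotypes with nestin-Cre, 7 were positive and 10 negative, with a median of -0.20 beside 0.005 over all genes.

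Over all the lists, edgeR, DESeq2 and limma-voom called 0 marker or pathway genes in any of the 5 comparisons, and Kmt2a was called by DESeq2 in Kmt2a+/LSL against Kmt2a+/+ and in Nes-Cre+/- Kmt2a+/LSL against Kmt2a+/LSL. The microglia list had a median log2 fold change of 0.10 in Kmt2a+/LSL against Kmt2a+/+ and 0.07 in Nes-Cre+/- Kmt2a+/LSL against Kmt2a+/LSL, and the general myeloid list -0.04 and -0.08, all beside 0.00 over all genes. The border macrophage list had 0.38 and -0.09.

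The genes whose log2 CPM was most like that of Siglec1 over the 12 libraries were Ccnk, a cyclin (Pearson r = 0.847), Grin3a, a glutamate receptor subunit (0.807), Olfm1, a secreted glycoprotein (0.797), Plcg2, a phospholipase of immune receptors (0.792) and Trmo, a tRNA methyltransferase (0.79), out of 11677 genes with a mean of at least 50 counts. These are descriptions of a gene with 0 to 6 counts, in libraries that share genotype and depth. Ccnk had 45, 35 and 57 counts in the Nes-Cre+/- Kmt2a+/+ libraries and 261, 210 and 96 counts with the cassette and Cre.

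Genes around Siglec1 were looked at next. Within 100 kb, 8 had values (Atrn, Gm14049, Gfra4, Adam33, Hspa12b, 1700037H04Rik, Spef1 and Cenpb), and edgeR, DESeq2 and limma-voom called 0 of them in any comparison. Adam33, the nearest of them, had 0, 3 and 5 counts in Kmt2a+/+ and 2, 2 and 3 in Nes-Cre+/- Kmt2a+/+. Gm14049, a processed pseudogene, had 0 counts in all Nes-Cre+/- Kmt2a+/+ libraries as Siglec1 did, 1, 1 and 0 in Kmt2a+/+, 0 in all Kmt2a+/LSL libraries, and 1, 5 and 5 in Nes-Cre+/- Kmt2a+/LSL.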

How the data were processed

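mRNA of mNPC cultures was measured in 12 libraries of 4 genotypes. The authors pseudoaligned reads to the mouse mm10 (GRCm38) transcriptome with kallisto 0.48.0 and summed transcripts to genes with tximport and biomaRt, and the table the authors deposited holds the resulting estimated counts as unscaled whole numbers. It covers 18911 genes that each have a count in 2 or more libraries, so a gene that is not among them was not analysed here. Tests designed for counts were run on these values without change. Shares between genes with common sequence depend on kallisto's estimates. Symbols came from the GRCm38 annotation for 18718 Ensembl identifiers. Genotypes and replicate numbers came from the sample labels. Totals were 18280008 to 28596919 per library.

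The 17076 genes with a summed count over 10 and a count in 2 or more libraries were fitted in R 4.3.3 with edgeR 4.0.16, with TMM scaling, all 12 libraries and genotype as the only term. The quasi-likelihood F-test was two-sided, with Benjamini-Hochberg adjustment over all genes tested and calls at an adjusted p under 0.05. The common biological coefficient of variation was 0.368. DESeq2 1.42.0, limma-voom (limma 3.58.1), other scaling, filters, samples in the fit, the replicate number as a block and each library left out were alternatives. A fold against a genotype at 0 was computed against 3 counts over the genotype, and ratios of summed counts carry exact 95% intervals for counting error. CPM were divided by the longest transcript's length to compare genes. Genes were named by a rule: all members, Kmt2a, up to 4 most abundant genes of each list and any called, the 5 most like Siglec1 and those within 100 kb of it. Other genes named, such as Tmem119, Selplg, Fcrls, P2ry13, Mrc1, Pf4, Stab1, Ms4a7, Spi1, Ptprc, C3, Btk, Cst7, Entpd1, Sox10, Mbp, Mog and Nek7, were chosen after their values were seen. The members and lists were chosen with earlier results of these data known. Some genes the rule names are not reported here. The fit was tested on simulated data.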

Additional observations from a re-analysis of the deposited data

How the results depend on the processing

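Csf1r, Cx3cr1 and P2ry12 in the 5 comparisons, and Siglec1 in Kmt2a+/LSL against Kmt2a+/+, stayed above an adjusted p of 0.05 under all alternatives that gave a value. In the other comparisons Siglec1 was fitted by edgeR, DESeq2 and limma-voom alone. Asking for 10 counts in all libraries left no member to test. The DESeq2 Wald test called 7 genes in Kmt2a+/LSL against Kmt2a+/+, 7 in Nes-Cre+/- Kmt2a+/LSL against Kmt2a+/LSL, 3 in Nes-Cre+/- Kmt2a+/+ against Kmt2a+/+, 5 in Nes-Cre+/- Kmt2a+/LSL against Kmt2a+/+ and 3 between the genotypes with nestin-Cre, where edgeR called 0, 0, 0, 1 and 0, and the cause was not tested. The 1 gene fell to 0 with the replicate block, with only the compared genotypes and with the study's 9 libraries. With libraries left out, the counts ran from 0 to 2, 0 to 1 and 0 to 1 in Kmt2a+/LSL against Kmt2a+/+, Nes-Cre+/- Kmt2a+/LSL against Kmt2a+/LSL and Nes-Cre+/- Kmt2a+/LSL against Kmt2a+/+, and the genes shared with the 5 most like Siglec1 from 2 to 5 (3 with Spearman correlation).

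Some log2 fold changes turned. Under limma-voom these were Cx3cr1 (0.0089) and P2ry12 (1.73) in Kmt2a+/LSL against Kmt2a+/+, and P2ry12 (0.39) in Nes-Cre+/- Kmt2a+/LSL against Kmt2a+/+. With the replicate block, P2ry12 was 0.16 in Kmt2a+/LSL against Kmt2a+/+. With single libraries left out, that comparison ranged from -0.93 to 0.73 for Cx3cr1 and from -0.63 to 2.47 for P2ry12. Nes-Cre+/- Kmt2a+/LSL against Kmt2a+/+ ranged from -1.30 to 1.79 for P2ry12 and from -4.46 to 0.0912 for Csf1r. Nes-Cre+/- Kmt2a+/+ against Kmt2a+/+ ranged from -0.40 to 1.25 for Cx3cr1, and Nes-Cre+/- Kmt2a+/LSL against Kmt2a+/LSL from -2.64 to 1.90 for Csf1r. Between the genotypes with nestin-Cre Csf1r ranged from -1.87 to 3.94. The causes were not tested. Replicate numbers were not treated as pairs, since the sources used here name nothing that same-numbered libraries share and not every pair's correlation was over 0.1. The mean correlation of deviations was 0.084 over 18 same-numbered pairs (-0.072 to 0.416) and -0.041 over 36 others, 8 of 12 libraries correlated best with their own number, and the block changed no other call. Depth limits the members, since 0 to 33 counts a genotype carry their comparisons.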

Other observations

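Markers of other cells that a dissected hippocampus can hold ranged from near 0 to abundant, and edgeR, DESeq2 and limma-voom called 0 of them in any comparison. Neuron markers summed to 1023 to 1923 CPM over the 12 libraries, most of it the microtubule protein Map2 (1370 CPM), with Tubb3 at 18.9 CPM and Dcx at 12.1 CPM. Meningeal fibroblast markers summed to 35.4 to 94.7 CPM, led by Pdgfra (39.5 CPM), which oligodendrocyte progenitors also express, and Foxc1 (11.4 CPM), while the collagen genes Col1a1, Col1a2 and Col3a1 had means under 1 CPM. All 5 lymphocyte and erythroid genes with values had means under 1 CPM, and their summed level was 0.488 to 1.46 CPM over the 12 libraries. Of 8 endothelial genes, 5 had means under 1 CPM, and the highest, the VEGF receptor Flt1, had 5.33 CPM. Mural cell genes were led by Notch3 and Cspg4, which neural progenitors also express, while the pericyte receptor Pdgfrb had 0 to 7 counts.

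Csf2ra, a subunit of the GM-CSF receptor chosen after its values were seen, was at 0 in some libraries and well counted in others of the same genotype. It had 34, 0 and 0 counts in the Kmt2a+/+ libraries and 52, 0 and 42 in the Nes-Cre+/- Kmt2a+/LSL libraries, and was at 0 in the 6 others. It did not pass edgeR's test in any comparison (adjusted p = 1 in each).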
